A study of Mus musculus with 6 samples.

Results

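The integrated stress response and the serine-folate pathway that it controls were examined through 10 genes, Atf4, Atf5, Ddit3, Trib3, Sesn2, Asns, Phgdh, Psat1, Shmt2 and Mthfd2. The genes were chosen by symbol, and their symbols matched 11 of the 54532 rows of the count table, because Ddit3 is annotated under 2 identifiers. All 10 genes passed the filter on low counts through their main row and were tested. The second Ddit3 row had 0 reads in every library and is not used further.

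RNA was sequenced from mouse hearts taken on day 14 after myocardial infarction. The WT group (genotype wild type) and the ACKR4_KO group (genotype ACKR4-KO, lacking an atypical receptor that scavenges chemokines) held 3 libraries each. All mice were C57BL/6, aged 8 to 10 weeks, and both groups had an infarct, and hearts without one were not analysed here. The sources used here do not give the way the knockout allele was made, the cells it affects, the part of the heart sampled or whether each library is 1 animal, so p-values measure the spread between these libraries, which may in part be technical.

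The integrated stress response is a shared answer of cells to amino acid shortage, unfolded protein in the endoplasmic reticulum, double-stranded RNA, heme shortage and failing mitochondria. Each of these activates a kinase that phosphorylates the translation factor eIF2. General protein synthesis falls while the mRNA of the transcription factor ATF4 is translated better, and ATF4 then induces genes for amino acid synthesis and uptake, tRNA charging, and the making of serine and one-carbon folate units. In heart muscle this programme is known to be switched on by mitochondrial faults. ATF4 and ATF5 are controlled in large part through translation, which mRNA levels do not show.

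ATF4 binds DNA with C/EBP partners at composite elements near the start of its target genes. The letters TGATGNAA, the core of such an element, were searched on both strands from 250 bases before to 50 bases after each RefSeq start (GRCm38.p6), and they occur in 3.97% of the 32851 windows of all genes. All 10 genes had a window, with 12 windows between them. The core was found for 2 of the 10 genes, Asns and Trib3, in 2 of the 12 windows. In a list of other ATF4 targets it was found for 8 of the 18 genes with a window, Nupr1 among them. In Trib3 it lies after the start. A second spelling, TGNTGCAAT, was chosen after the windows had been read, so its matches may follow from that choice. It was found for Trib3 and Psat1, in 2 of the 12 windows, and for 3 of the 18 other targets, Nupr1 among them. It occurs in 0.673% of all windows, a share that cannot be weighed against these matches. The second spelling overlaps the first where it reads TGATGCAAT. The stretches that hold these letters before the start are shown in the direction of the gene, with the matched letters in capitals. Asns and Trib3 are shown as the 2 of the 10 genes with the core, and Trib3 by its second spelling, which lies before the start. Psat1 is shown because it has the same letters as Trib3, and Nupr1 because it had the smallest p among the other ATF4 targets. In Nupr1 the capitals spell the motif on the opposite strand.
Asns, chr6:7693210-7693262, minus strand: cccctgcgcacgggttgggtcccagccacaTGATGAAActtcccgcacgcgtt
Trib3, chr2:152344061-152344123, minus strand: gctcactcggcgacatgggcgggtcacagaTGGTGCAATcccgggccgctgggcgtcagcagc
Psat1, chr19:15925157-15925225, minus strand: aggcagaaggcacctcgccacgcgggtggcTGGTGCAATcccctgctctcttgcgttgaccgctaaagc
Nupr1, chr7:126625543-126625611, minus strand: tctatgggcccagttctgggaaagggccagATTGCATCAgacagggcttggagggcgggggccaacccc
A match describes letters and does not show binding. The RefSeq start of Psat1 lies inside the longer gene span given by GENCODE. The CCAAT box was found for 7 of the 10 genes, in 7 of their 12 windows, and in 37.4% of all windows.

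Libraries held between 9422462 and 13910358 reads. Levels are given as CPM, a gene's reads per 1000000 reads of its library, with library sizes scaled by TMM. Ackr4, the targeted gene, had 151 to 169 reads in each WT library and 1 to 12 in each ACKR4_KO library. Its mean was 13.3 ± 2.00 CPM over the WT libraries and 0.491 ± 0.494 CPM over the others (SD, n = 3 each), which is -4.70 as a log2 fold change of ACKR4_KO over WT (SE 0.48, adjusted p = 0.099 by edgeR and 3e-19 by DESeq2). Of the 14406 genes tested by edgeR's quasi-likelihood test, 0 passed an adjusted p of 0.05, 1073 had an unadjusted p under 0.05 (7.45%), and 39 of the 14394 genes with an adjusted p passed by DESeq2 (0.271%). ACKR4_KO replicate 2 stood apart in tissue markers. Its summed fibroblast and scar markers were at 4140 CPM, against 10302 and 15223 CPM in the other ACKR4_KO libraries and 11278 to 12675 CPM in WT.

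None of the 10 genes passed the test between genotypes, and the background share of genes that passed was 0%. By edgeR 0 of the 10 genes had an unadjusted p under 0.05, beside 3.64% of all genes lower and 3.81% higher in ACKR4_KO. None passed by DESeq2, by limma-voom or by edgeR without a filter on low counts, where 0.0942% of all genes passed. The smallest adjusted p was 0.693, for Atf4. Of the 10 fitted changes 7 were below zero and 3 above, with a median log2 fold change of -0.25, beside 0.01 over all genes tested, of which 48% were below zero. The changes ran from -0.42 for Mthfd2 to 0.25 for Psat1. The groups did not overlap in 1 of the 10 genes, Atf4, which was lower in ACKR4_KO. Groups without overlap and lower in ACKR4_KO made up 7.63% of all genes tested, and 14.2% lacked overlap in either direction. With a library left out, the share of all genes that separated was larger. Among the 10 genes, without WT replicate 2 they were Atf4, Asns, Sesn2 and Shmt2 (23.6% of all genes), without ACKR4_KO replicate 1 Atf4 and Phgdh (31.2%), without ACKR4_KO replicate 2 Atf4, Atf5 and Trib3 (23.2%) and without ACKR4_KO replicate 3 Atf4, Sesn2, Mthfd2 and Shmt2 (31%). Without WT replicate 1 it was Atf4 (21.6%), and without WT replicate 3 Atf4, Trib3 and Mthfd2 (19.1%). Atf4 separated in each of these settings, as a gene whose groups are already separate with all 6 libraries will, apart from shifts in scaling.

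**Figure D1:**
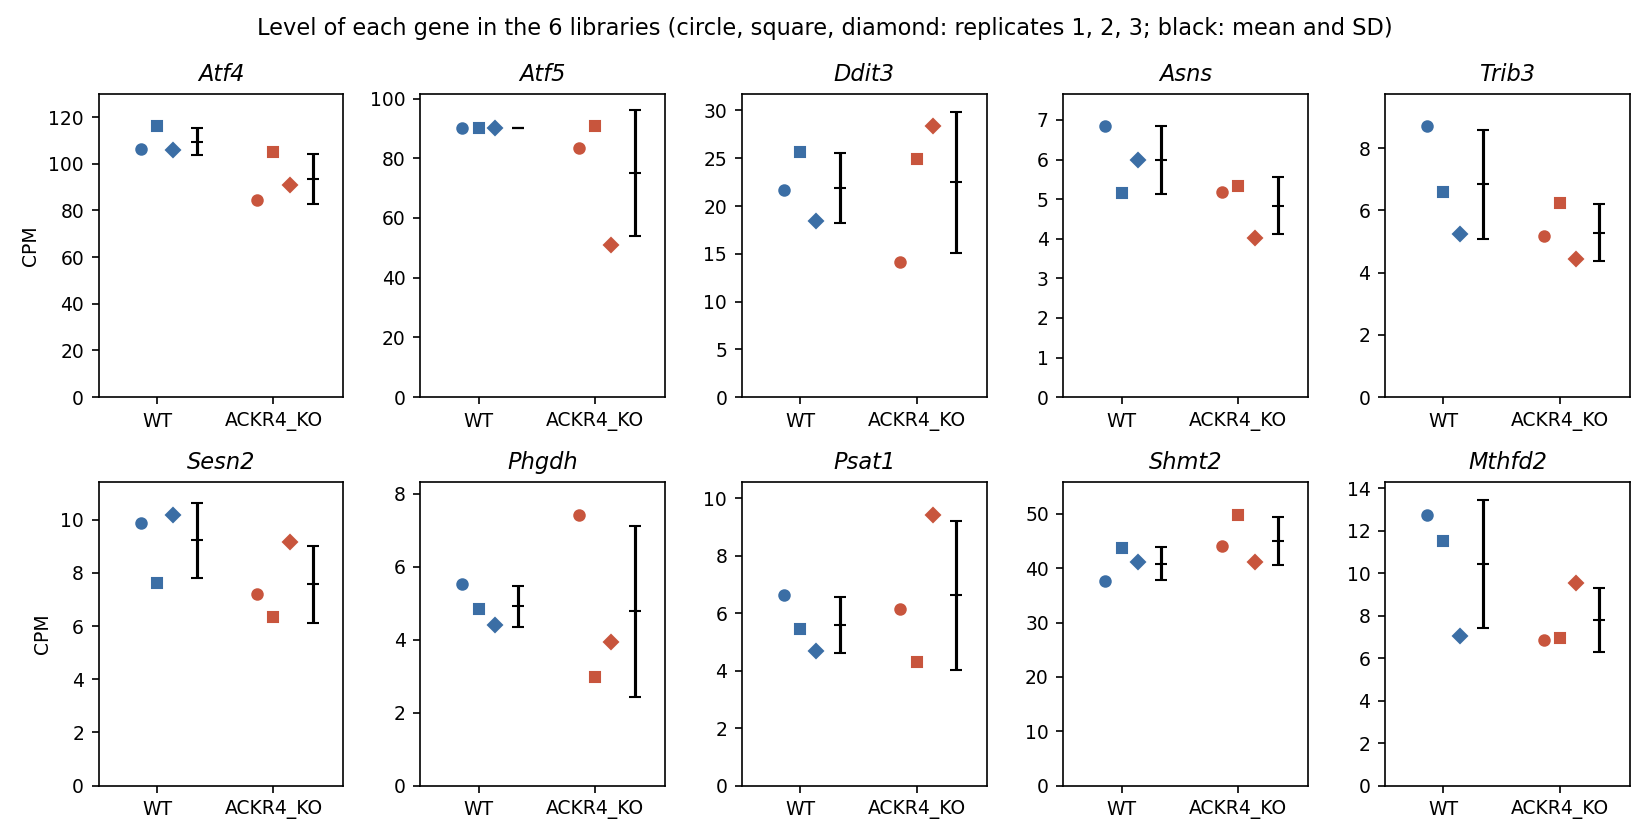
Level in CPM of each of the 10 genes (vertical axes from 0) in the WT libraries (blue) and ACKR4_KO libraries (red), with circles, squares and diamonds for replicates 1, 2 and 3 and the group mean and SD in black. The groups are separate only for Atf4, and the SD is wider in ACKR4_KO for 8 of the 10 genes relative to the mean.

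Atf4 encodes the transcription factor at the centre of the response (ENSMUSG00000042406, chromosome 15, 80255184 to 80257541, plus strand, GRCm38). Its level was 106.2, 116 and 105.9 CPM in WT replicates 1, 2 and 3 and 84.3, 105.1 and 90.8 CPM in ACKR4_KO replicates 1, 2 and 3. All WT libraries lay above all ACKR4_KO libraries, and they came closest between WT replicate 3 and ACKR4_KO replicate 2. These libraries, at 105.9 and 105.1 CPM, differed by less than counting error. Counting alone gives a coefficient of variation of 2.73% in WT and 3.11% in ACKR4_KO. The means were 109 ± 5.83 CPM and 93.4 ± 10.7 CPM (SD, n = 3 each), which the fit gave as -0.23 on the log2 scale (SE 0.12, 95% interval -0.51 to 0.06). The unadjusted p by edgeR was 0.102 and the adjusted p was 0.693. An exact permutation test of 3 libraries against 3, two-sided, cannot give a p below 0.1.

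Atf5 encodes a related bZIP factor, itself translated through the same eIF2 control and tied to the mitochondrial unfolded protein response (chromosome 7, 44812256 to 44816658, minus strand). WT replicates 1, 2 and 3 were at 90.2, 90.1 and 90.01 CPM, and ACKR4_KO replicates 1, 2 and 3 at 83.3, 90.8 and 51.0 CPM. Only ACKR4_KO replicate 3 stood well below WT, while ACKR4_KO replicate 2 lay above every WT library. The coefficient of variation was 0.131% in WT, below the 3.00% that counting alone gives at this depth, and 28.2% in ACKR4_KO. The fitted log2 fold change of -0.26 (SE 0.20) became -0.05 without ACKR4_KO replicate 3 and -0.42 without ACKR4_KO replicate 2. Atf5 shares 82 of its 1993 exonic bases with Nup62 on the opposite strand, and the strand setting of the counting is not given, so reads in that stretch could belong to either gene.

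Ddit3 encodes CHOP, the factor that links prolonged stress to cell death (chromosome 10, 127290774 to 127296288, plus strand). It was at 21.6, 25.6 and 18.4 CPM in WT replicates 1, 2 and 3 and at 14.1, 24.9 and 28.4 CPM in ACKR4_KO replicates 1, 2 and 3. The lowest and the highest of the 6 values were both ACKR4_KO libraries, so the groups overlapped fully. Its fitted change was 0.04 (SE 0.25, 95% interval -0.54 to 0.62), and it lay between -0.16 without ACKR4_KO replicate 3 and 0.29 without ACKR4_KO replicate 1. The second Ddit3 identifier covers 105 of the 1713 exonic bases of the first. The Ddit3 row also shares 68 exonic bases with Mars, the methionyl-tRNA synthetase gene on the other strand.

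Trib3 encodes a pseudokinase induced by ATF4 and CHOP that holds back both AKT and ATF4 itself (chromosome 2, 152337422 to 152344032, minus strand). Its level was 8.71, 6.58 and 5.23 CPM in WT replicates 1, 2 and 3 and 5.17, 6.25 and 4.45 CPM in ACKR4_KO replicates 1, 2 and 3. WT replicate 1 was the highest and the other libraries interleaved. In the fit the log2 fold change was -0.37 (SE 0.26), and -0.16 without WT replicate 1. Its reads numbered 51 to 112 per library, at which counting alone gives a coefficient of variation of 10.9% in WT.

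Sesn2 encodes sestrin 2, a leucine sensor that restrains mTORC1 (chromosome 4, 132492032 to 132510501, minus strand). It was at 9.88, 7.61 and 10.2 CPM in WT replicates 1, 2 and 3 and 7.19, 6.35 and 9.17 CPM in ACKR4_KO replicates 1, 2 and 3. The groups overlapped through WT replicate 2 and ACKR4_KO replicate 3. The fitted change was -0.29 on the log2 scale (SE 0.21), -0.18 without ACKR4_KO replicate 2 and -0.45 without ACKR4_KO replicate 3.

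Asns encodes asparagine synthetase, the classical target of amino acid shortage (chromosome 6, 7675169 to 7693254, minus strand), whose stretch with the ATF4 core letters is printed above. It was at 6.85, 5.14 and 5.99 CPM in WT replicates 1, 2 and 3 and 5.17, 5.33 and 4.02 CPM in ACKR4_KO replicates 1, 2 and 3. WT replicate 2 lay among the ACKR4_KO values. The fitted change was -0.31 on the log2 scale (SE 0.23), -0.21 without WT replicate 1 and -0.19 without ACKR4_KO replicate 3, with 46 to 88 reads per library.

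Phgdh and Psat1 encode the first and the following enzyme of serine synthesis from a glycolytic intermediate. Phgdh (chromosome 3, 98313170 to 98339990, minus strand) was at 5.52, 4.84 and 4.41 CPM in WT replicates 1, 2 and 3 and 7.43, 2.97 and 3.93 CPM in ACKR4_KO replicates 1, 2 and 3. ACKR4_KO replicate 1 was the highest of all libraries and the other ACKR4_KO libraries the lowest. Its log2 fold change was -0.03 (SE 0.34, 95% interval -0.81 to 0.75), and it was -0.51 without ACKR4_KO replicate 1 and 0.21 without ACKR4_KO replicate 2. Its coefficient of variation in ACKR4_KO, 49.1%, was the largest of the 10 genes, beside 13.4% from counting alone. The pseudogene Phgdh-ps1 had 0 reads.

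Psat1 (chromosome 19, 15904678 to 15947337, minus strand) was at 6.61, 5.45 and 4.68 CPM in WT replicates 1, 2 and 3 and 6.14, 4.30 and 9.43 CPM in ACKR4_KO replicates 1, 2 and 3. Here ACKR4_KO replicate 3 was the highest of the 6 libraries and ACKR4_KO replicate 2 the lowest. Its log2 fold change was 0.25 (SE 0.30), -0.083 without ACKR4_KO replicate 3 and 0.48 without ACKR4_KO replicate 2. Phgdh and Psat1, neighbouring steps of 1 pathway, thus had their highest level in different ACKR4_KO libraries.

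Shmt2 encodes the mitochondrial enzyme that moves a carbon unit from serine to folate. Mthfd2 encodes a mitochondrial enzyme that then acts on the folate-bound unit. Shmt2 (chromosome 10, 127517123 to 127522444, minus strand) was at 37.7, 43.8 and 41.1 CPM in WT replicates 1, 2 and 3 and 44.1, 49.9 and 41.2 CPM in ACKR4_KO replicates 1, 2 and 3. The ACKR4_KO libraries lay in the upper range, with WT replicate 2 above ACKR4_KO replicate 3. The log2 fold change was 0.14 (SE 0.12, 95% interval -0.14 to 0.42), the narrowest interval of the 10 genes. Shmt2 shares 32 of its 3109 exonic bases with Ndufa4l2 on the opposite strand. Shmt2 was the only one of the 10 genes whose fitted change lay above zero in all 15 alternatives run, between 0.066 without ACKR4_KO replicate 2 and 0.21 without ACKR4_KO replicate 3.

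Mthfd2 (chromosome 6, 83305691 to 83325908, minus strand) was at 12.8, 11.5 and 7.02 CPM in WT replicates 1, 2 and 3 and 6.86, 6.97 and 9.52 CPM in ACKR4_KO replicates 1, 2 and 3. WT replicate 3 lay with the lower ACKR4_KO libraries and ACKR4_KO replicate 3 lay between the WT values. The log2 fold change was -0.42 (SE 0.26, 95% interval -1.01 to 0.17), the most negative of the 10 genes. It was -0.64 without WT replicate 3 and -0.24 without WT replicate 1. Shmt2 and Mthfd2, which act one after the other, had fitted changes of opposite sign.

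**Figure D2:**
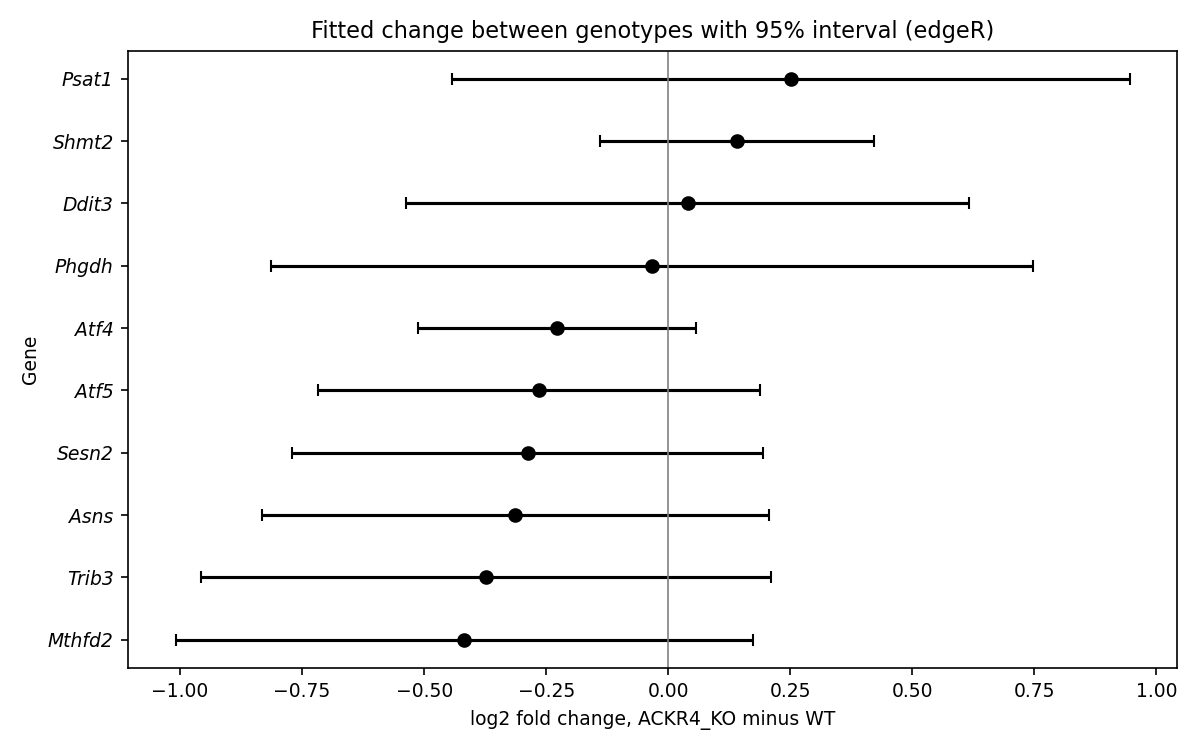
Fitted log2 fold change, ACKR4_KO minus WT (horizontal axis), of the 10 genes, with points for the estimate and bars for the 95% interval from edgeR's quasi-likelihood fit. Every bar crosses zero, from Mthfd2 at -0.42 to Psat1 at 0.25.

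The ACKR4_KO libraries departed from WT in different genes. In ACKR4_KO replicate 1, 6 of the 10 genes lay below the lowest WT library and 2 above the highest, Phgdh and Shmt2. In ACKR4_KO replicates 2 and 3, 5 genes lay below and 2 above, which were Atf5 and Shmt2 in replicate 2 and Ddit3 and Psat1 in replicate 3. The share of all genes outside the WT range in each library was not computed, so these counts are not read as particular to the 10 genes. The median deviation from the WT mean was -0.27, -0.13 and -0.18 on the log2 scale in ACKR4_KO replicates 1, 2 and 3, and 0.14, -0.01 and -0.10 in WT replicates 1, 2 and 3. The coefficient of variation was larger in ACKR4_KO than in WT for 8 of the 10 genes (80%), beside 74.7% of all genes tested.

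**Figure D3:**
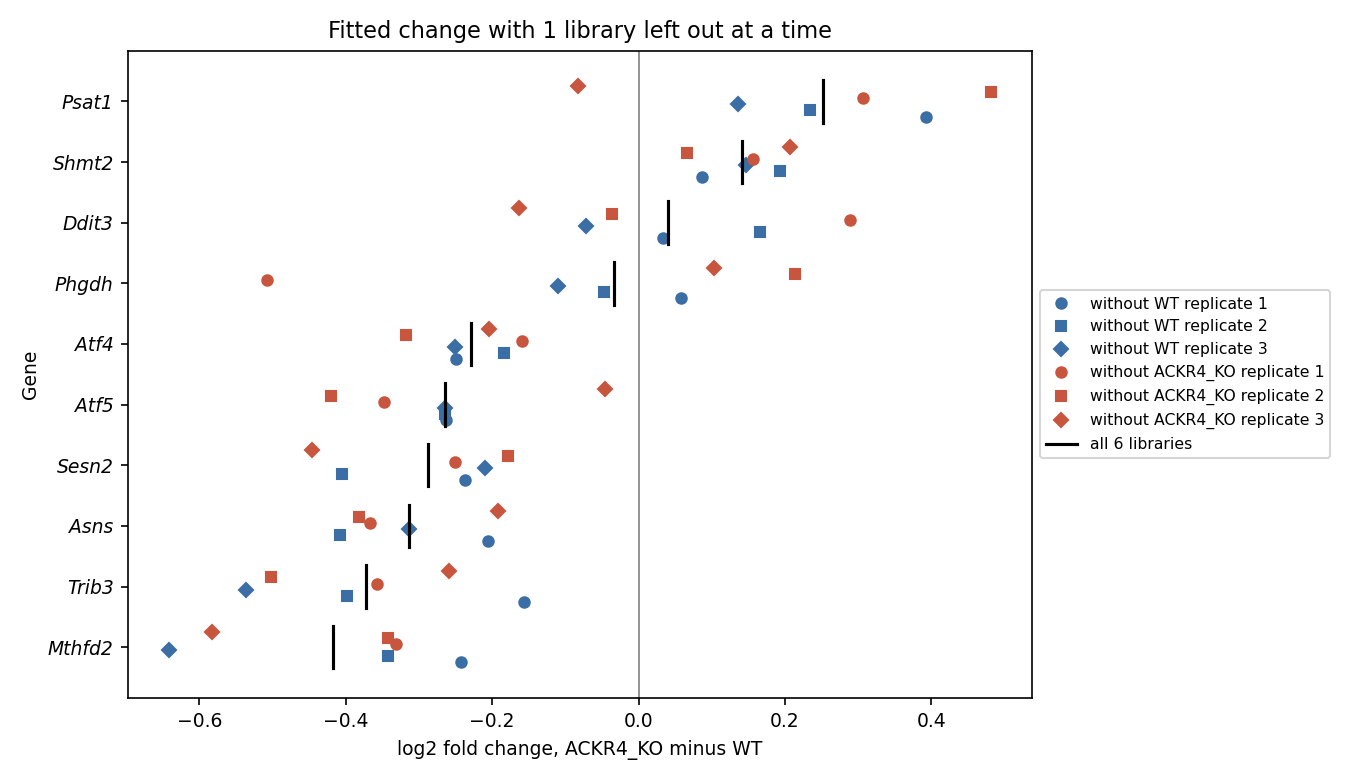
Fitted log2 fold change, ACKR4_KO minus WT (horizontal axis), of the 10 genes when 1 library at a time is left out (blue for a WT library, red for an ACKR4_KO library, circles, squares and diamonds for replicates 1, 2 and 3), and with all 6 libraries as a black bar. Phgdh spans -0.51 to 0.21 and Psat1 -0.083 to 0.48, while Atf4 stays between -0.32 and -0.16.

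Levels between genes were compared as RPKM, the CPM divided by the exonic length in kilobases. In WT, Atf4 was at 46.4 ± 2.47 RPKM and Atf5 at 45.2 ± 0.0591 RPKM (SD, n = 3 each), which do not differ beyond their spread by this length. Shmt2, at 13.1 ± 0.995 RPKM, and Ddit3, at 12.8 ± 2.11 RPKM, followed and did not differ beyond their spread either. The other 6 genes lay between 3.22 RPKM for Trib3 and 1.31 RPKM for Psat1, with Mthfd2, Sesn2, Asns and Phgdh between them, and each differed from its neighbour in the order by less than the sum of their SDs except Psat1 from Phgdh. In every library the lowest of Atf4, Atf5, Shmt2 and Ddit3 was above the highest of the other 6 genes. In WT the factors and the mitochondrial serine enzyme were thus the abundant genes, and Psat1 was the scarcest by this length. With the longest transcript as the length, Psat1 was at 2.13 ± 0.371 RPKM and Phgdh at 2.60 ± 0.297 RPKM in WT. By that length they did not differ by more than the sum of their SDs. Atf4, at 54.2 ± 2.89 RPKM in WT, then lay above Atf5, at 49.6 ± 0.0648 RPKM, by more than the sum of their SDs. Ddit3, at 22.6 ± 3.74 RPKM, then lay above Shmt2, at 17.9 ± 1.35 RPKM, by less than the sum of their SDs.

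**Figure D4:**
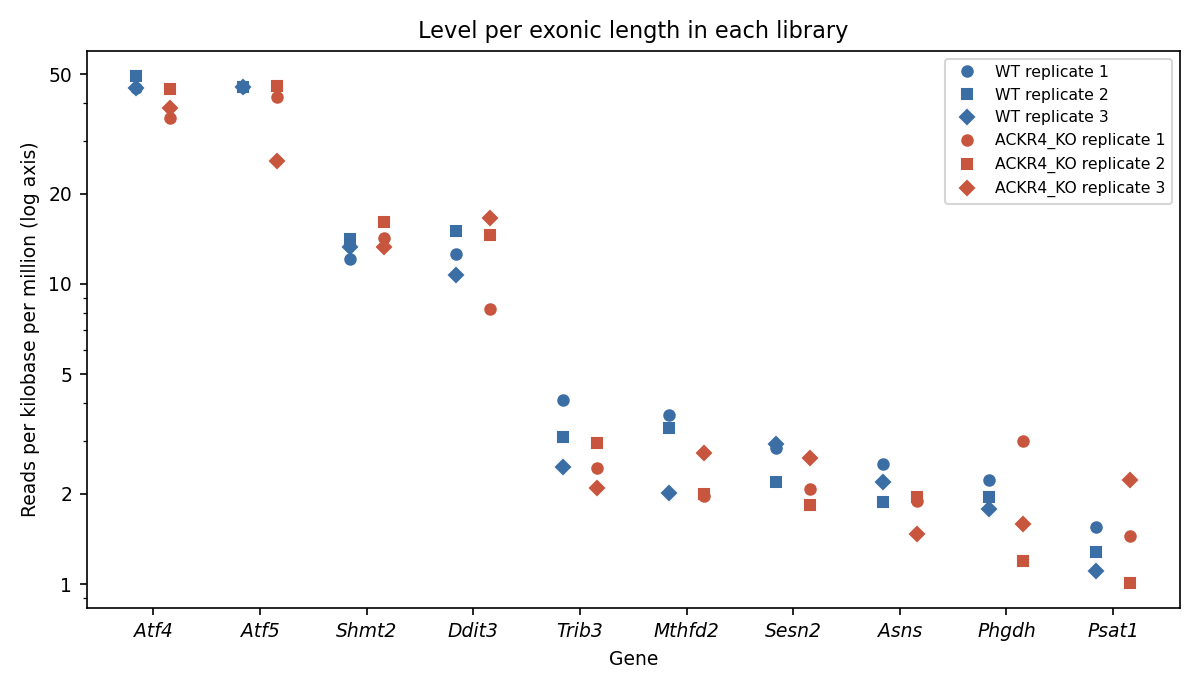
Level per exonic length (vertical log axis, RPKM) of the 10 genes in each WT library (blue) and ACKR4_KO library (red), ordered by the WT mean. Atf4 and Atf5 lie highest, Shmt2 and Ddit3 next, and the other 6 genes between 1.01 and 4.10 RPKM.

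The 10 genes did not follow a single pattern over the libraries. Of their 45 pairs, 28 had a positive Pearson correlation of log2 CPM over the 6 libraries and 17 a negative one, with a median of 0.10. These are descriptions over few libraries that share depth and tissue composition. Atf5 with Asns (r = 0.81) and Asns with Trib3 (r = 0.78) were highest, and Sesn2 with Shmt2 (r = -0.91) and Atf5 with Psat1 (r = -0.85) lowest. With Atf4 itself the correlation was 0.61 for Trib3, 0.55 for Atf5, 0.46 for Asns, 0.46 for Ddit3 and 0.44 for Mthfd2, and it was 0.10 for Sesn2, -0.004 for Shmt2, -0.40 for Phgdh and -0.52 for Psat1. These values mix the difference between the groups with the spread within them. Over deviations from the group means the correlation with Atf4 was 0.76 for Shmt2, 0.67 for Ddit3, 0.34 for Trib3, 0.29 for Atf5, 0.07 for Mthfd2 and -0.06 for Asns, and it was -0.51 for Psat1, -0.62 for Sesn2 and -0.81 for Phgdh. Shmt2 was thus near zero by the first measure and highest by the second. Trib3 and Psat1, which share the letters TGGTGCAAT, had a correlation of -0.28 with each other. Among 12848 genes compared, the most like Atf4 over the 6 libraries was Ncbp1, a subunit of the nuclear cap-binding complex (r = 0.995). Next came Ankrd23, an ankyrin repeat protein of striated muscle (r = 0.99), and the phosphodiesterase gene Pde8b (r = 0.99). None of them is in the pathway lists. They are the highest of many values over few libraries, and a link with Atf4 was not tested.

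The kinases and factors upstream of ATF4 gave no passing change either. In a list of eIF2 kinases, their relay and phosphatase genes and the subunits of eIF2 and eIF2B, 17 of 17 genes were tested, 0 passed in either direction, and the median log2 fold change was 0.09. None had an unadjusted p under 0.05 by edgeR, and 1 of 17, Eif2b3, an eIF2B subunit, had groups without overlap (higher in ACKR4_KO, beside 6.53% of all genes). The 3 genes with the smallest p, none of them past the test, were Eif2ak3, the endoplasmic reticulum kinase PERK, at a log2 fold change of -0.33 (SE 0.18), Oma1, the mitochondrial protease that relays mitochondrial stress, at 0.26 (SE 0.15), and Eif2ak2, the kinase PKR, at 0.40 (SE 0.24). Eif2ak2 was at 48.4 CPM in ACKR4_KO replicate 2 and between 24.2 and 26.7 CPM in the other 5 libraries, and its change was 0.03 without that library. Eif2ak3 was at -0.16 without WT replicate 3, and Oma1 at 0.16 without WT replicate 3 or ACKR4_KO replicate 2.

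Other targets of ATF4 were measured in 20 genes, of which 19 were tested and Fgf21 was too low. None passed over all genes, 11 were above zero and 8 below, and the median was 0.04. Nupr1, a small stress-induced chromatin protein whose stretch is printed above, had the smallest p. It was at 40.5, 41.3 and 35.3 CPM in WT replicates 1, 2 and 3 and 27.5, 16.1 and 28.8 CPM in ACKR4_KO replicates 1, 2 and 3. The groups did not overlap, and ACKR4_KO replicate 2 was far the lowest. Nupr1 was the only 1 of the 19 tested genes without overlap, beside 7.63% of all genes lower without overlap. It was also the only 1 of 19 with an unadjusted p under 0.05 by edgeR, beside 3.64% of all genes lower. Its log2 fold change was -0.69 (SE 0.21, unadjusted p = 0.00978, adjusted p = 0.611 by edgeR), and it lay between -0.82 and -0.46 in the 15 alternatives. Gpt2, a mitochondrial alanine transaminase, at 0.36 and Jdp2, a bZIP repressor, at 0.39 came next and did not pass. Without ACKR4_KO replicate 2 each was at 0.17, and without ACKR4_KO replicate 3 Gpt2 was at 0.56 and Jdp2 at 0.62. Jdp2 was at 0.22 without WT replicate 1. Amino acid transporters, 8 of 9 tested, had 0 past the test and a median of -0.0002, with 4 on either side of zero. Their smallest p belonged to Slc7a1, the arginine carrier, Slc7a11, the cystine carrier, and Slc7a5. The log2 fold change was 0.48 for Slc7a1, -0.98 for Slc7a11 (at 3 to 34 reads) and 0.27 for Slc7a5. Slc7a11 had 3 reads in ACKR4_KO replicate 3, and its change was -0.17 without WT replicate 2 and -0.53 without ACKR4_KO replicate 3. Slc7a1 was at 0.24 without ACKR4_KO replicate 2 and 0.75 without ACKR4_KO replicate 3. Slc7a5 was at 0.14 without WT replicate 2, 0.12 without ACKR4_KO replicate 3 and 0.49 without ACKR4_KO replicate 1.

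Cytosolic aminoacyl-tRNA synthetases, which charge tRNAs and are in part ATF4 targets, had 13 of 13 genes tested, 10 of them above zero, 0 past the test and a median of 0.11. Groups did not overlap in 3 genes higher in ACKR4_KO, which were Iars, Cars and Aars, and in 1 lower, Tars, beside background shares of 6.53% higher and 7.63% lower. The smallest p belonged to Iars, Cars and Vars, with log2 fold changes of 0.21 (SE 0.11), 0.35 (SE 0.18) and 0.20 (SE 0.12). Without ACKR4_KO replicate 3 Cars was at 0.15 and Vars at 0.12.

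The other enzymes and carriers of serine and folate metabolism had a median of 0.06, with 12 of 19 tested genes above zero and 0 past the test. Cbs was too low to be tested. Aldh1l2, the mitochondrial enzyme that releases carbon units from folate as carbon dioxide and makes NADPH, had the smallest p. It was at 5.13, 3.91 and 4.61 CPM in WT replicates 1, 2 and 3 and 8.16, 8.81 and 7.33 CPM in ACKR4_KO replicates 1, 2 and 3. All ACKR4_KO libraries lay above all WT libraries. The fitted log2 fold change was 0.82 (SE 0.21, unadjusted p = 0.00334, adjusted p = 0.606 by edgeR), and it lay between 0.73 and 0.92 in the 15 alternatives without passing in any, where the smallest adjusted p was 0.23. Mthfd1, the cytosolic folate enzyme, was at 27.6, 27.0 and 26.9 CPM in WT replicates 1, 2 and 3 and 31.1, 32.3 and 32.6 CPM in ACKR4_KO replicates 1, 2 and 3, with a log2 fold change of 0.24 (SE 0.11). Mtr, methionine synthase, had 0.32 (SE 0.16), with ACKR4_KO replicate 2 the highest at 117 CPM, and 0.13 without that library. Mthfd2l, the homologue of Mthfd2, also had groups without overlap, so that 4 of 19 genes were higher without overlap and 0 lower, beside 6.53% and 7.63% of all genes. Psph, the last enzyme of serine synthesis, had a log2 fold change of -0.04 and overlapping groups.

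Genes of the endoplasmic reticulum unfolded protein response that run beside the PERK arm were above zero in 14 of 16, with a median of 0.19 and 0 past the test. Manf, a secreted stress protein, had a log2 fold change of 0.45 (SE 0.13), Herpud1, a part of the degradation machinery, 0.45 (SE 0.18), and the sensor Atf6 0.23 (SE 0.13). In Manf and Herpud1 the groups did not overlap, with unadjusted p of 0.0073 and 0.0389 and adjusted p of 0.606 and 0.661 by edgeR. They were the 2 of 16 genes that were higher without overlap, beside 6.53% of all genes, and the 2 of 16 that were higher with an unadjusted p under 0.05, beside 3.81% of all genes. The change of Herpud1 was 0.25 without ACKR4_KO replicate 2, and that of Atf6 0.14 without WT replicate 2. Mitochondrial chaperones and proteases were above zero in 10 of 10, with a median of 0.25, 0 past the test and 0 without overlap. The lowest of these changes was 0.001. Beside the counts above zero in this and the other lists, 7485 of all 14406 genes tested were above zero. The lists were chosen with earlier results of these data known. Hspe1, the co-chaperonin of HSP60, had 0.58 (SE 0.23), the protease Lonp1 0.23 and Clpp 0.28. Clpp was at 0.16 without WT replicate 3 and 0.14 without ACKR4_KO replicate 2. Summed cardiomyocyte markers also lay higher in every ACKR4_KO library, with 9 of 10 genes above zero and a median of 0.40, and they were highest in ACKR4_KO replicate 2, where the scar markers were lowest. Their part in the level of the mitochondrial list was not tested. With a library left out, the median of the unfolded protein response list lay between 0.03 without ACKR4_KO replicate 2 and 0.27 without ACKR4_KO replicate 3. That of the mitochondrial list lay between 0.13 without ACKR4_KO replicate 2 and 0.32 without ACKR4_KO replicate 1.

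**Figure D5:**
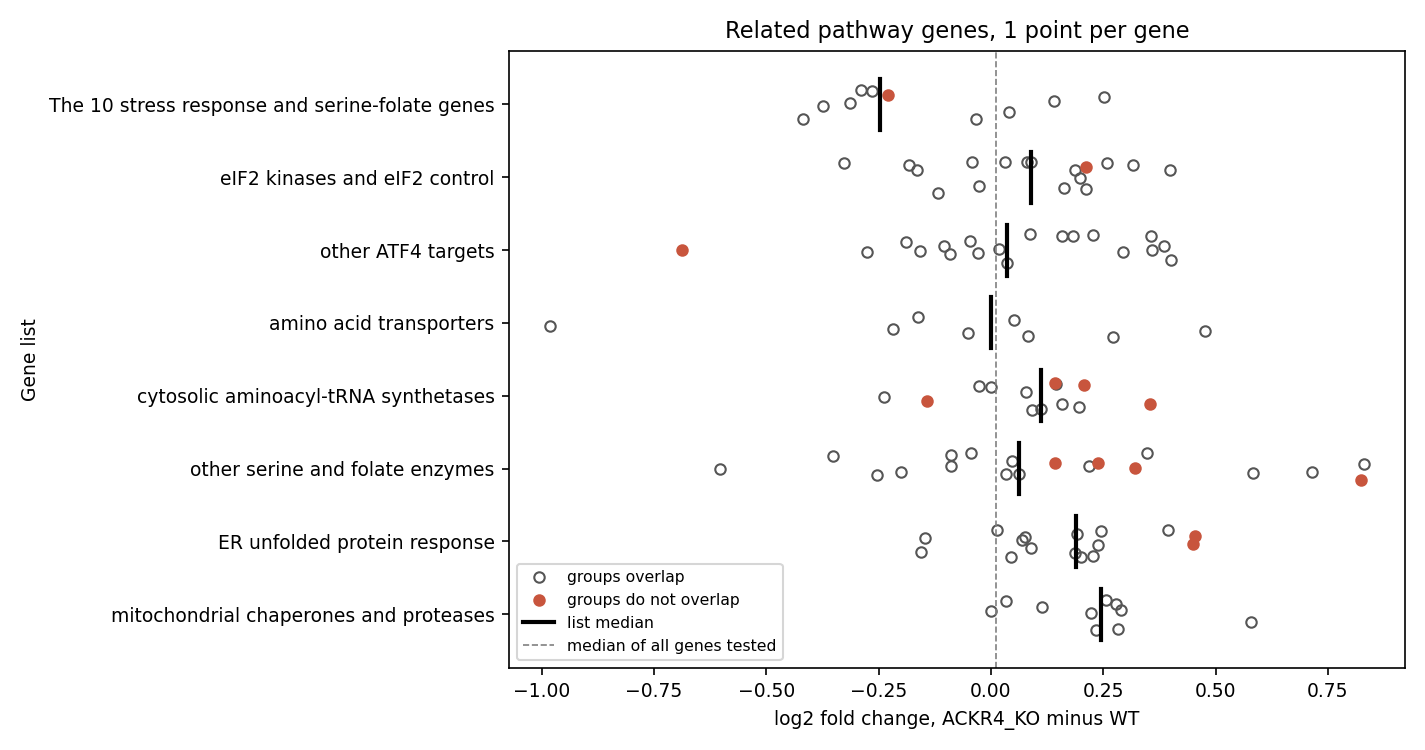
Fitted log2 fold change, ACKR4_KO minus WT (horizontal axis), of every tested gene in the 10-gene set and in 7 related lists, with filled red points where the groups do not overlap, black bars for list medians and a dashed line for the median of all genes. The 10-gene set has a median of -0.25 while the medians of the 7 lists lie between -0.0002 and 0.25.

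The tissue markers of the libraries differed between the groups. Summed markers of cardiomyocytes ran from 32980 to 40369 CPM in the WT libraries and from 42776 to 56301 CPM in the ACKR4_KO libraries without overlap, with no marker at 0. T and NK cell markers lay between 11.6 and 17.8 CPM in WT libraries and between 5.23 and 7.16 CPM in those of ACKR4_KO, where 6 of 6 tested genes were below zero and no marker was at 0 in a whole group. Lung epithelial markers were at 39.3 to 240 CPM in WT and 0.404 to 1.92 CPM in ACKR4_KO, with 4 of 8 genes at 0 in all ACKR4_KO libraries. Markers of fast skeletal muscle ran from 3.89 to 110 CPM in the WT libraries and from 2.42 to 8.61 CPM in the ACKR4_KO libraries. These, and the markers of endothelium, macrophages, red blood cells and adipocytes, overlapped between the groups. The part of these differences in the levels of Atf4, Nupr1 and Aldh1l2 was not tested, and in bulk tissue fewer cells of a type and less RNA per cell cannot be told apart. The source of the lung epithelial reads in these heart libraries was not tested either.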

How the data were processed

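The deposited table holds raw counts of reads per gene, a column for each library. CASAVA 1.8.2, HISAT2, HTSeq 0.6.0 and build mm10 are named in the submitters' processing notes, while the annotation release and strand setting are not given there. Symbols came from a table of names, and coordinates and lengths from GENCODE M21 (GRCm38). All 54532 rows name a gene identifier. Genes were kept by filterByExpr of edgeR 4.0.16 (minimum count 10, total 15), libraries were scaled by TMM, and ACKR4_KO was compared with WT by edgeR's robust quasi-likelihood test, two-sided, adjusted by Benjamini-Hochberg over 14406 genes, threshold 0.05. Standard errors were derived from the log2 fold change and its F statistic. The fits were tested on simulated counts. The 10 genes and the lists were chosen with earlier results of these data known. Per list, genes past the threshold are named, or otherwise the 3 with the smallest p, and 3 genes most like Atf4 among those of at least 2 CPM (prior count 2). Other genes named, which are those without overlap between the groups, Psph, Fgf21 and Cbs, were picked with their values known. The alternatives tried were other scalings, DESeq2 1.42.0, limma-voom (limma 3.58.1), other filters, a replicate block and each library left out. R 4.3.3 was used.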

Additional observations from a re-analysis of the deposited data

How the results depend on the processing

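With other settings, 0 of the 10 genes passed in any of the 15 alternatives, while the number of all genes that passed was 39 by DESeq2, 24 without a filter on low counts, 6 with the replicate number as a block, and 0 to 1 with a library left out (1 without ACKR4_KO replicate 3). The median of the 10 genes lay between -0.29 and -0.18. Groups without overlap numbered 2 of 10 genes (Atf4 and Atf5) with upper-quartile factors and without mitochondrially encoded and hemoglobin genes, and 1 to 4 with a library left out, beside 19.1% to 31.2% of all genes. The direction turned for Ddit3 with limma-voom (-0.0081), the replicate block (-0.0020) and without WT replicate 3 (-0.07), ACKR4_KO replicate 2 (-0.04) or 3 (-0.16), and was highest at 0.29 without ACKR4_KO replicate 1. It turned for Phgdh without WT replicate 1 (0.06), ACKR4_KO replicate 2 (0.21) or 3 (0.10), with -0.51 without ACKR4_KO replicate 1. For Psat1 it turned without ACKR4_KO replicate 3 (-0.083), with 0.48 without ACKR4_KO replicate 2. The median of amino acid transporters was 0.11 without ACKR4_KO replicate 2 and -0.21 without ACKR4_KO replicate 1. The cause was not tested. With the longest transcript as the length, 4 of 10 genes kept their place in the order of levels. Alternatives for list medians and for genes named from the lists were added after seeing the data. The labels do not say whether the replicate numbers pair the libraries. The library names carry numbers of their own, which are the same between the groups for replicates 2 and 3 and differ for replicate 1. Libraries of the same replicate number had correlations of deviations of 0.067, 0.053 and 0.125. Those of different replicate numbers lay between -0.121 and 0.063. Of the 6 libraries 5 correlated best with their own replicate number. These values are small and do not settle whether the libraries are paired. Genes with under 100 reads per library are limited by counting error, which alone gives over 10% spread there.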
